A study of Homo sapiens with 12 samples.

Results

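The 37 genes described here encode nucleolar proteins that make ribosomes, and are known as genes that respond to MYC. They were chosen by name, with earlier results of these data known. All 37 names were among the 38478 genes of the table, and 36 of them, with an average of 0.5 RPKM or more, were among the 11241 genes tested (RPKM, reads per kilobase of gene, scaled to the size of the library). RNA-seq of poly(A) RNA was carried out in OPM-1, an established human multiple myeloma cell line, in 4 groups of 3 samples. All cells were cultured for 48 hours with the vehicle DMSO, with 0.1 µM lenalidomide (LEN), with 1 µM of the RUNX inhibitor AI-10-104, or with LEN and AI-10-104 at the same doses (LEN+AI-10-104). LEN is an immunomodulatory drug that directs the ubiquitin ligase cereblon to the lymphoid transcription factors IKZF1 and IKZF3, and AI-10-104 binds CBFβ, the partner of the RUNX transcription factors. The 3 samples of a group were described in the study's methods as biological replicates, all of 1 cell line, at 1 dose of each agent and 1 time.

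The nucleolus is where RNA polymerase I transcribes ribosomal RNA (rRNA) and where the precursor is modified, cut and folded with ribosomal proteins into the small and the large subunit. Box C/D and box H/ACA small nucleolar ribonucleoproteins (snoRNPs) guide methylation and pseudouridylation of the precursor, and a long series of assembly factors binds and leaves each subunit in turn. MYC activates many of these genes through E-boxes, short elements near their start sites, and myeloma cells, which secrete large amounts of protein, commonly carry raised MYC. By role, the 37 genes comprised 4 of box C/D snoRNPs, 3 of box H/ACA snoRNPs, 9 of small subunit assembly, 10 of large subunit assembly, 4 of RNA polymerase I transcription and 7 other nucleolar proteins.

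Between 16352548 and 31386210 reads lay on genes in each sample, with the shallowest libraries in the LEN+AI-10-104 group (16352548 to 20419807). Among the plasma cell markers, 9 of 10 were above the minimum, and their summed level was 1423 to 1497 RPKM with DMSO, 1384 to 1425 with LEN, 1613 to 1668 with AI-10-104 and 1428 to 1514 with both, and the part of this difference in the results was not tested. Of the markers of B cells, T and NK cells, myeloid cells and fibroblasts or epithelium, 0 of 22 reached the minimum, and the highest was 0.749 RPKM. Samples also differed in how values moved with the GC content of genes. Over 10042 genes, Spearman's rho between GC content and the deviation from the mean over samples was 0.43, -0.04 and -0.35 in the 3 DMSO samples, -0.17, 0.43 and -0.10 with LEN, -0.42, -0.07 and -0.45 with AI-10-104, and 0.41, 0.38 and 0.19 with LEN+AI-10-104. The second AI-10-104 sample stood apart from the other two of its group in some of the genes below, and results that rest on it are given with and without it.

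In DMSO the 36 genes tested were abundant, with a median of 54.2 RPKM against 8.498 RPKM over all genes tested. NCL, which encodes nucleolin, a major nucleolar RNA-binding protein, was the highest at 1273 ± 5.27 RPKM (SD, n = 3) and gave 30.4% of all reads of the 37 genes. FBL, the methyltransferase of box C/D snoRNPs, gave 4.48% and NOP56, a scaffold protein of the same particles, 4.40%. The lowest of the 36 was PPAN, a large subunit assembly factor, at 8.18 ± 0.535 RPKM. Within groups the median coefficient of variation was 3.24%, and the highest was 21.3%, for PPAN with AI-10-104. RRN3, which brings RNA polymerase I to its promoter, was not tested, since it had 0 to 4 reads in every sample. Its deposited length was 7654 bases against 4139 exon bases in GENCODE 44, and a level of RRN3 cannot be given from so few reads.

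E-boxes were searched for in the promoters of the genes, 250 bases before to 50 after each RefSeq start (GRCh38.p14), because these genes are known as MYC-responsive. An entry was found for 32 of the 37 genes, with 42 windows in all. The letters CACGTG, which read the same on both strands, were present in at least 1 window of 14 of the 32 (43.8%), against 13.0% of 8088 genes tested with an entry and 8.77% of all 27305 genes with one. CACGCG, searched on both strands (CACGCG or CGCGTG), was present in 12 of the 32 (37.5%), against 23.3% and 13.5%. Either was present in 22 genes (68.8%), against 32.6% and 20.3%. The genes had 1.31 windows on average, against 1.43 in genes tested and 1.29 in all genes. Among the 12 genes given in full below, 11 had an entry, and DDX21, GNL3, UTP20 and WDR43 held CACGTG (36.4% of the 11). DDX21, NPM1, POLR1A and WDR75 held CACGCG on either strand, and HEATR1, NCL, POLR1B and WDR12, which also fell below, held neither. For 3 of the genes that held a motif and whose levels fell in the tests below, stretches of 60 bases are shown. They are given 5′ to 3′ on the gene's strand, with the motif in capitals. They lie at chr12:101280045-101280104 on the plus strand for UTP20, at chr10:68956045-68956104 on the plus strand for DDX21, and at chr5:171387625-171387684 on the plus strand for NPM1.
UTP20: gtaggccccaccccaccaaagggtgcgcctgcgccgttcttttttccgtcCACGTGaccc
DDX21: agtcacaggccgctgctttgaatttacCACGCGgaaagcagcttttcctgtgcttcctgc
NPM1: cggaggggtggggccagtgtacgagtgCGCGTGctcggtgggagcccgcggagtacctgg
The first base of the motif lay 10 bases before the start of UTP20, 98 before a RefSeq start of DDX21 and 197 before a RefSeq start of NPM1. These RefSeq starts of DDX21 and NPM1 lie downstream of the gene starts given below, and the NPM1 stretch lies within the gene as given there. A match is a description of the letters and shows no binding.

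Across the treatments the 36 genes moved little. A change was called where limma gave a Benjamini-Hochberg adjusted p of at most 0.05 and a log2 fold change of at least 0.32 in size. By this rule 0 of 36 genes were called in any of the 5 comparisons between groups. The background, the share of all 11241 genes called higher and lower, was 0.587% and 0.0623% for LEN against DMSO, 0.685% and 1.09% for AI-10-104 against DMSO, and 2.30% and 0.641% for LEN+AI-10-104 against DMSO. It was 0.872% and 0.81% for LEN+AI-10-104 against LEN, and 3.16% and 0.471% for LEN+AI-10-104 against AI-10-104. The 95% interval of the log2 fold change lay wholly within 0.32 of 0 for 35 of the 36 genes with LEN, 34 with AI-10-104 and 35 with LEN+AI-10-104, each against DMSO. Changes below are therefore given at an adjusted p of at most 0.05 with no fold threshold, and "rose" and "fell" are used in that sense. In bulk RNA, fewer cells of a type and less RNA per cell cannot be told apart.

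**Figure D1:**
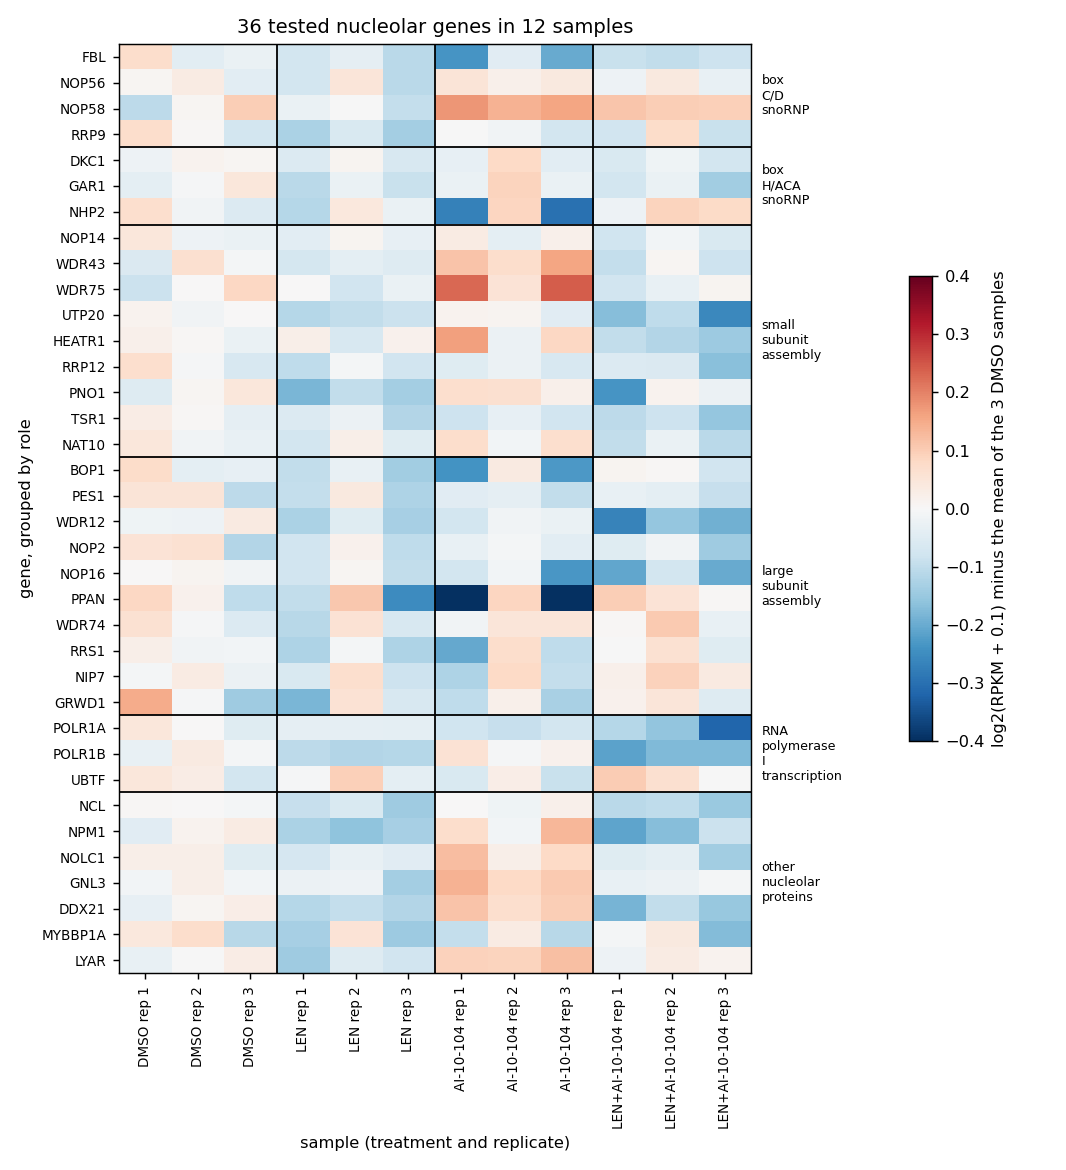
The 36 genes tested (rows, grouped by role) in the 12 samples (columns, by group), coloured by log2(RPKM + 0.1) minus the DMSO mean of that gene, on a scale cut at ±0.4. Of the 36 genes, 34, 22 and 35 lay below the DMSO mean in the LEN samples and 29, 21 and 30 in the LEN+AI-10-104 samples, against 13, 13 and 26 in the DMSO samples and 20, 15 and 20 in the AI-10-104 samples.

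With LEN alone, 35 of the 36 genes lay below their DMSO level, UBTF being the exception at a log2 fold change of 0.02. Over all genes 49.0% lay above 0. The median was -0.06, a difference of -4.14%, and the middle range ran from -0.09 to -0.04, whereas over all genes tested the median was -0.00, 51.0% lay below 0 and the middle range ran from -0.05 to 0.06. At an adjusted p of at most 0.05, limma called 0 genes higher and 0 lower (0.979% and 0.151% of all genes), and voom on the recovered reads also called 0. At an unadjusted p under 0.05, 0 were higher (6.57% of all genes) and 8 lower (4.15%), namely DDX21, LYAR, NCL, NPM1, PNO1, POLR1B, UTP20 and WDR12. The smallest adjusted p was 0.15, for POLR1B and DDX21. For 9 genes, these 8 and GNL3, every LEN sample lay below every DMSO sample (7.03% of all genes), and for 0 genes every LEN sample lay above (9.42%). Of the 36 genes, 35 lay below 0 under each of 16 settings that left out no single sample, with medians from -0.07 to -0.05. Some of these settings, such as the fold thresholds, the fit without a variance trend and the replicate block, cannot change a log2 fold change. Leaving out 1 sample at a time gave medians from -0.090 (without the second LEN sample) to -0.040 (without the third LEN sample, 33 genes below 0), and as few as 31 genes below 0 without the first DMSO sample.

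With AI-10-104 alone no common direction was seen, with 18 genes above the DMSO level (53.0% of all genes) and 18 below it (47.0%), and a median of -0.00 (0.01 over all genes). Log2 fold changes ran from -0.25 for PPAN to 0.17 for WDR75. The test called 0 genes higher and 0 lower (2.09% and 2.46% of all genes), and voom 2 higher and 1 lower (4.07% and 4.75%). At an unadjusted p under 0.05, DDX21, GNL3, LYAR, NOP58, WDR43 and WDR75 were higher (6 genes, against 11.7% of all genes) and FBL was lower (1 gene, against 10.2%). For 5 genes every AI-10-104 sample lay above every DMSO sample (13.1% of all genes), and FBL and POLR1A lay below without overlap (2 genes, against 10.2%).

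With LEN+AI-10-104, 7 of the 36 genes fell against DMSO (19.4%, against 3.0% of all genes) and 0 rose (5.64% of all genes). They were the RNA polymerase I subunits POLR1A and POLR1B, the nucleolar proteins NCL, NPM1 and DDX21, and the assembly factors UTP20 and WDR12. The median was -0.06 against 0.02 over all genes, and 27 of 36 genes lay below 0 (42.8% of all genes) and 9 above it (57.2%). At an unadjusted p under 0.05, 10 were lower (8.73% of all genes) and NOP58 was higher (14.9%). Without the second LEN+AI-10-104 sample the median was -0.087, with 31 genes below 0, while without the second DMSO sample it was -0.041. Log2 fold changes ran from -0.21 for WDR12 to 0.10 for NOP58. For 11 genes the samples of the groups did not overlap, all lower with the treatment (11.1% of all genes), and 0 were higher without overlap (18.1%).

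Against AI-10-104 alone, LEN+AI-10-104 lowered 11 of the 36 genes (30.6%, against 5.84% of all genes) and raised 0 (9.13% of all genes). DDX21, GNL3, NCL, NOLC1, NPM1, HEATR1, UTP20, WDR43, WDR75, POLR1B and WDR12 fell. The median was -0.06 against 0.02 over all genes, with 26 genes below 0 (45.6% of all genes) and 10 above it (54.4%). At an unadjusted p under 0.05, 16 were lower (13.6% of all genes) and NHP2 and PPAN were higher (19.5%). For 17 genes every sample with both agents lay below every AI-10-104 sample (15.2% of all genes), and for 0 it lay above (19.0%). Against LEN alone, LEN+AI-10-104 called 0 genes higher and 0 lower (2.48% and 2.14% of all genes), and 17 genes lay above 0 (58.4% of all genes). There voom called 1 in each direction (3.16% higher and 2.83% lower of all genes). An unadjusted p under 0.05 was reached there by LYAR and NOP58 as higher (12.7% of all genes) and by HEATR1, POLR1A, POLR1B and WDR12 as lower (7.90%).

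These comparisons share samples. The average effect of LEN, over 6 samples with LEN and 6 without, was taken from the same fit of all 12 samples. It was chosen after seeing the data and uses the same samples as the comparisons above. In it 11 genes fell (30.6%, against 4.74% of all genes) and 0 rose (7.15% of all genes), with a median of -0.06 against 0.01 and 30 genes below 0 against 46.2% of all genes. DDX21, GNL3, LYAR, NCL, NOLC1, NPM1, PNO1, POLR1B, UTP20, WDR12 and WDR43 fell. For DDX21, NCL, NPM1, POLR1B and UTP20, all 6 samples with LEN lay below all 6 without it (5 genes, against 1.25% of all genes). In the average effect of AI-10-104, LYAR and NOP58 rose (2 genes, against 5.35% of all genes) and POLR1A fell (1 gene, against 4.20%).

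**Figure D2:**
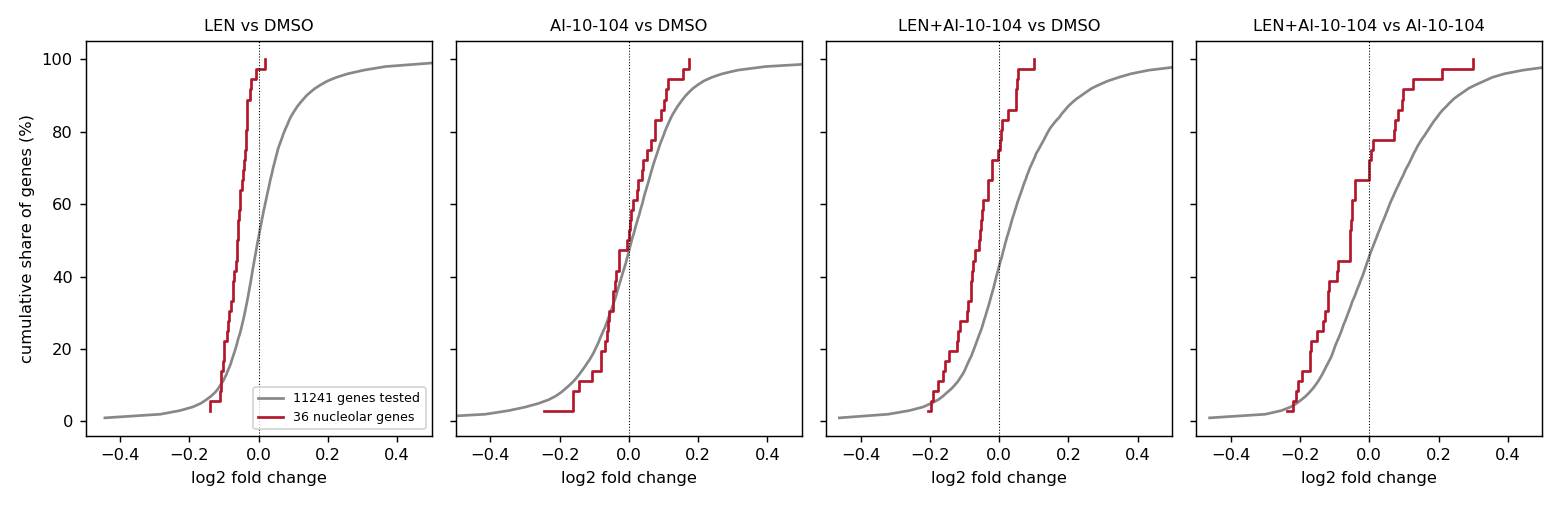
Cumulative share of genes (vertical axis, percent) by log2 fold change (horizontal axis, drawn from -0.5 to 0.5) for the 36 genes and for all 11241 genes tested, in 4 comparisons. Over most of its range the curve of the 36 genes lies to the left of the other for LEN against DMSO, where 35 of 36 were below 0 against 51.0% of all genes, and both cross 0 at a like height for AI-10-104 against DMSO.

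The share of the reads of a library that lay on the 37 genes was 1.13%, 1.13% and 1.11% in the DMSO samples, 1.06%, 1.10% and 1.04% with LEN, 1.13% in each sample with AI-10-104, and 1.06%, 1.08% and 1.04% with LEN+AI-10-104. The 6 samples with LEN and the 6 without it did not overlap, and samples with AI-10-104 overlapped those without it. This share weights genes by their reads, and NCL gave 30.4% of them. The unweighted mean over the 36 genes of log2(RPKM + 0.1), relative to DMSO, did overlap, since it was -0.015 in the second LEN sample and -0.022 in the second LEN+AI-10-104 sample, but -0.025 in the third DMSO sample, -0.020 in the first AI-10-104 sample and -0.029 in the third AI-10-104 sample. NCL alone took 0.347%, 0.346% and 0.344% with DMSO, 0.325%, 0.331% and 0.313% with LEN, 0.346%, 0.342% and 0.351% with AI-10-104, and 0.321%, 0.323% and 0.312% with LEN+AI-10-104.

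**Figure D3:**
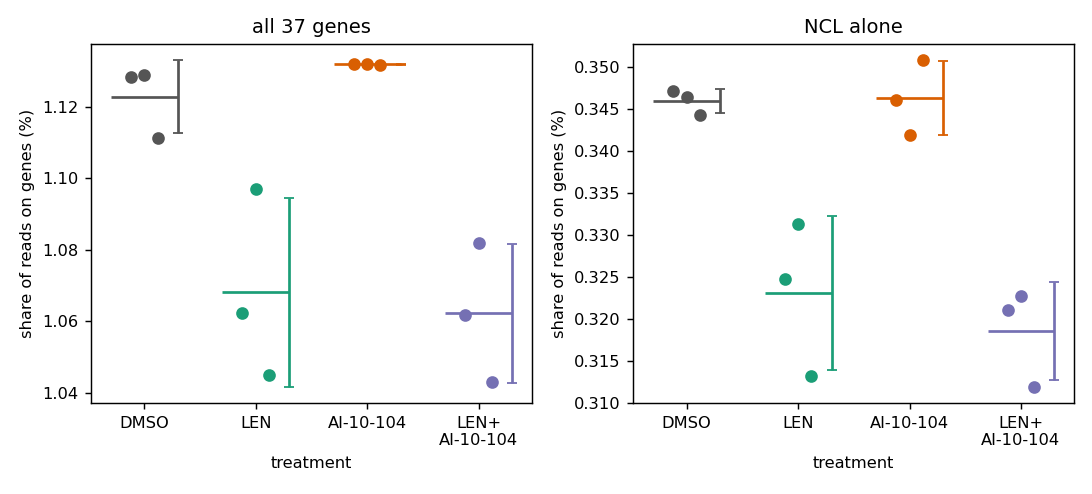
Percent of the reads on genes (vertical axis) that fell on the 37 genes and on NCL alone, for each of the 12 samples (points, by group on the horizontal axis), with the group mean (line) and SD (bar). Samples with LEN lie at 1.04% to 1.10% and those without it at 1.11% to 1.13% for the 37 genes.

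The catalytic core of RNA polymerase I is formed by its largest subunit, POLR1A, and its second largest, POLR1B. POLR1B (GRCh38, chr2:112541915-112579818, plus strand) was at 22.5, 23.6 and 22.9 RPKM with DMSO, 21.3, 21.2 and 21.2 with LEN, 23.9, 22.9 and 23.2 with AI-10-104, and 19.8, 20.3 and 20.3 with LEN+AI-10-104. Each of the 6 samples with LEN was below each of the 6 without it, and the 3 with both agents were the lowest of all. POLR1B fell by 0.19 ± 0.03 (log2, SE) with LEN+AI-10-104 against DMSO (adjusted p = 0.0037), by 0.21 against AI-10-104 (adjusted p = 0.0029) and by 0.16 in the average effect of LEN (adjusted p = 0.0011). POLR1A (chr2:86020216-86106155, minus strand) was at 22.0, 21.4 and 20.6 RPKM with DMSO, 20.8, 20.8 and 20.7 with LEN, 20.2, 20.01 and 20.3 with AI-10-104, and 19.7, 19.1 and 17.1 with LEN+AI-10-104. The samples with both agents lay below all 9 others, and the third was well under the other two. POLR1A fell by 0.20 ± 0.05 against DMSO (adjusted p = 0.026), while the difference from AI-10-104 alone was -0.12 (adjusted p = 0.11), and in the average effect of AI-10-104 it fell by 0.12 (adjusted p = 0.044). UBTF, which binds rDNA and opens it for the polymerase, was at 62.5 ± 2.78 RPKM with DMSO, 63.2 ± 3.06 with LEN, 60.7 ± 2.58 with AI-10-104 and 64.8 ± 2.33 with both, and its groups overlapped.

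Among the other nucleolar proteins, NCL, NPM1 and DDX21 fell with LEN+AI-10-104 both against DMSO and against AI-10-104. Of these calls, those of NCL in both comparisons and of NPM1 and DDX21 against DMSO were lost under some other settings or without single samples. NCL (chr2:231453531-231483641, minus strand) was at 1277, 1275 and 1267 RPKM with DMSO, 1195, 1219 and 1153 with LEN, 1274, 1259 and 1291 with AI-10-104, and 1182, 1188 and 1148 with both agents. The samples with LEN lay below all those without it, and the samples with AI-10-104 alone spanned the DMSO values. NCL fell by 0.12 ± 0.03 with LEN+AI-10-104 against DMSO (adjusted p = 0.033) and by 0.12 against AI-10-104 (adjusted p = 0.025), while LEN alone gave -0.10 (adjusted p = 0.19). NPM1 (chr5:171387116-171411810, plus strand) encodes nucleophosmin, an abundant chaperone of the outer nucleolus. Its values were 136, 142 and 144 RPKM with DMSO, 129, 126 and 128 with LEN, 148, 139.8 and 154 with AI-10-104, and 122, 125 and 133 with both. The groups with and without LEN did not overlap. NPM1 fell by 0.16 ± 0.04 with both agents against DMSO (adjusted p = 0.042), by 0.22 against AI-10-104 (adjusted p = 0.0090) and by 0.18 in the average effect of LEN (adjusted p = 0.0037). DDX21 (chr10:68956135-68985068, plus strand) is an RNA helicase that acts in rRNA transcription and processing. It was at 134, 139 and 140.1 RPKM with DMSO, 127, 129 and 127 with LEN, 149, 144 and 147 with AI-10-104, and 121, 129 and 124 with both. AI-10-104 samples were the highest and those with LEN, alone or combined, the lowest, with no overlap between them and DMSO. With LEN+AI-10-104, DDX21 had the largest fall of the 36 genes against AI-10-104, a log2 fold change of -0.24 (adjusted p = 0.0012), and against DMSO it fell by 0.14 ± 0.03 (adjusted p = 0.014).

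GNL3 and NOLC1 differed from these in that they fell against AI-10-104 alone and not against DMSO. GNL3 (chr3:52681156-52694497, plus strand), which encodes nucleostemin, a GTP-binding protein of dividing cells, was at 116, 119 and 116 RPKM with DMSO, 115, 115 and 106 with LEN, 129, 124 and 126 with AI-10-104, and 115, 115 and 116 with both. Only the AI-10-104 group stood clear of the others, on the high side. The log2 fold change of GNL3 with LEN+AI-10-104 was -0.13 against AI-10-104 (adjusted p = 0.030) and -0.02 against DMSO (adjusted p = 0.77). NOLC1 (chr10:102152176-102163871, plus strand), a chaperone of snoRNPs, was at 155, 155 and 147 RPKM with DMSO, 145, 149 and 148 with LEN, 166, 155 and 161 with AI-10-104, and 147, 148 and 138 with both. Its DMSO and LEN values overlapped. For NOLC1 the fold change of LEN+AI-10-104 was -0.15 against AI-10-104 (adjusted p = 0.023) and -0.08 against DMSO (adjusted p = 0.25). LYAR, a nucleolar zinc finger protein, rose by 0.10 in the average effect of AI-10-104 (adjusted p = 0.017) and fell by 0.09 in that of LEN (adjusted p = 0.024). It was at 69.3 ± 1.45 RPKM with DMSO, 65.1 ± 2.04 with LEN, 74.3 ± 0.892 with AI-10-104 and 69.7 ± 1.36 with both. MYBBP1A, a partner of the polymerase I machinery, ranged from 26.9 to 31.8 RPKM and did not pass the test on the uncorrected values of all 12 samples.

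**Figure D4:**
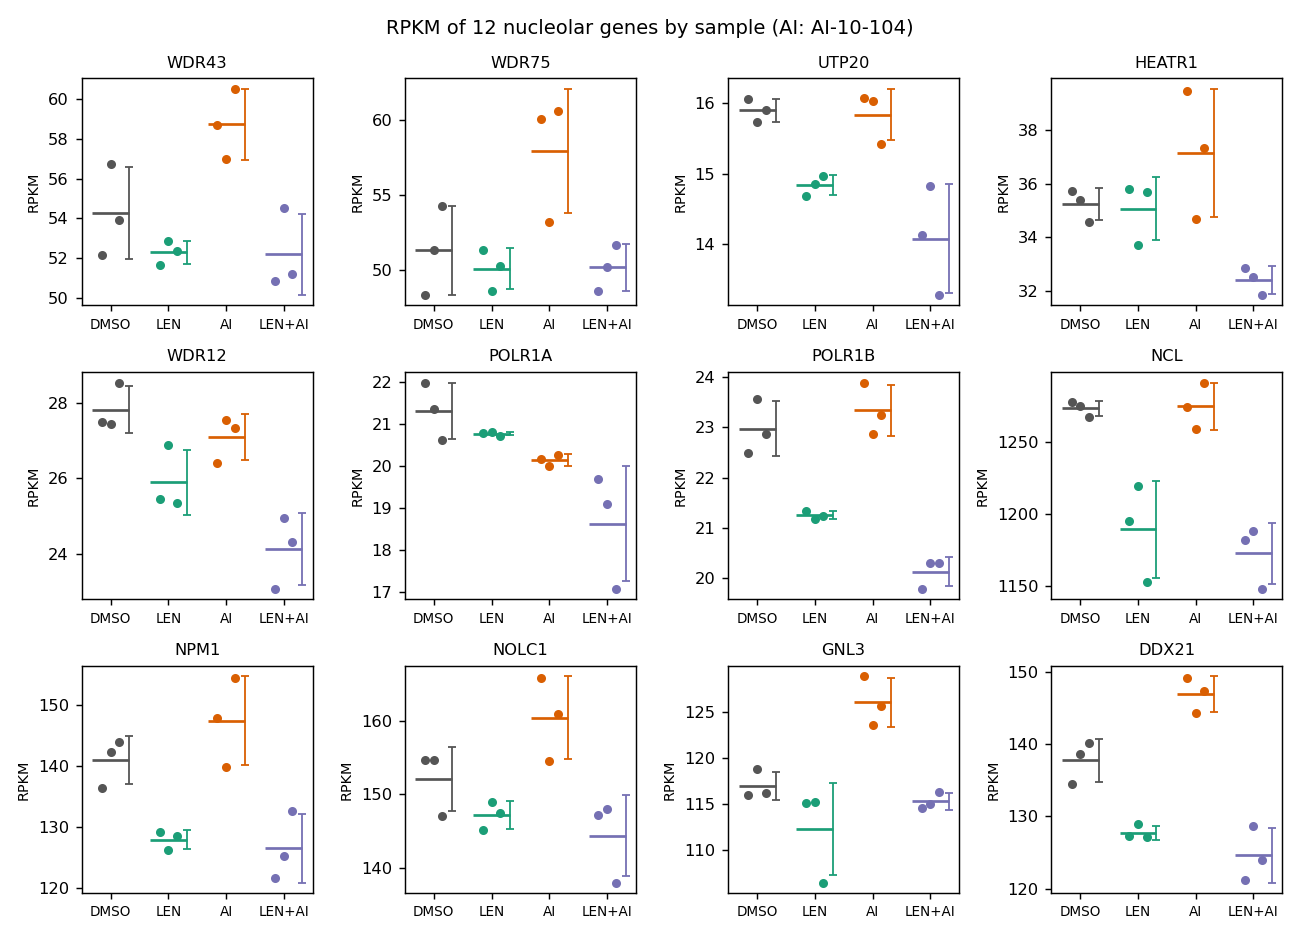
RPKM (vertical axis, separate for each panel) of the 12 genes given in full, for each sample (points) by group, with the mean (line) and SD (bar). In the panels of DDX21, NCL, NPM1, POLR1B and UTP20 all 6 samples with LEN lie below the 6 without it.

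All 9 genes of small subunit assembly had a log2 fold change below 0 for LEN+AI-10-104 against DMSO (42.8% of all genes) and against AI-10-104 (45.6%). Against DMSO their median was -0.08 (0.02 over all genes), and 1 fell (3% of all genes). Against AI-10-104 their median was -0.13 (0.02 over all genes), and 4 fell (5.84% of all genes). UTP20 (chr12:101280105-101386618, plus strand), a very large scaffold of the early precursor, was at 16.1, 15.7 and 15.9 RPKM with DMSO, 14.7, 14.8 and 14.97 with LEN, 16.1, 16.0 and 15.4 with AI-10-104, and 14.1, 14.8 and 13.3 with both. Every sample with LEN was below every sample without it. UTP20 fell by 0.18 ± 0.04 against DMSO (adjusted p = 0.021), by 0.17 against AI-10-104 (adjusted p = 0.020) and by 0.14 in the average effect of LEN (adjusted p = 0.012).

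The other 3 fell against AI-10-104 and did not pass against DMSO, and WDR43 also fell in the average effect of LEN. HEATR1 (chr1:236549005-236604516, minus strand), a subunit of the t-UTP complex needed for rRNA transcription, was at 35.7, 35.4 and 34.6 RPKM with DMSO, 35.8, 33.7 and 35.7 with LEN, 39.5, 34.7 and 37.3 with AI-10-104, and 32.9, 32.5 and 31.9 with both. Its samples with both agents were below all others. HEATR1 fell by 0.19 against AI-10-104 (adjusted p = 0.017), and the difference from DMSO was -0.12 ± 0.04 (adjusted p = 0.12). It shares 23.1% of its exon bases with LGALS8 on the other strand, whose reads cannot be told apart here. WDR43 (chr2:28894667-28948219, plus strand), another t-UTP subunit, was at 52.2, 56.8 and 53.9 RPKM with DMSO, 51.7, 52.9 and 52.4 with LEN, 58.7, 57.0 and 60.5 with AI-10-104, and 50.8, 54.5 and 51.2 with both. The AI-10-104 samples were the highest and the other groups overlapped. WDR43 fell by 0.17 against AI-10-104 (adjusted p = 0.019), and its difference from DMSO was -0.06 (adjusted p = 0.42). WDR75 (chr2:189441446-189475552, plus strand), of the same complex, was at 48.3, 51.3 and 54.2 RPKM with DMSO, 51.3, 48.6 and 50.3 with LEN, 60.05, 53.2 and 60.6 with AI-10-104, and 48.6, 50.2 and 51.7 with both. Its first and last AI-10-104 samples were high while the second lay within the DMSO values. WDR75 fell by 0.21 against AI-10-104 (adjusted p = 0.030), with -0.03 against DMSO (adjusted p = 0.79). PNO1, which binds the end of the small subunit rRNA, fell by 0.14 in the average effect of LEN (adjusted p = 0.050). NOP14, RRP12, TSR1 and the RNA acetyltransferase NAT10 ranged from 27.7 to 70.6 RPKM and did not pass the test on uncorrected values of all samples.

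Of the 10 genes of large subunit assembly, all lay below the DMSO level with LEN alone (51.0% of all genes). With LEN+AI-10-104, 5 lay below the DMSO level (42.8% of all genes) and 5 above it (57.2%). The median there was -0.01 (0.02 over all genes), and 1 gene fell (3% of all genes). That gene was WDR12 (chr2:202874261-203014798, minus strand), which with PES1 and BOP1 forms the PeBoW complex. It was at 27.5, 27.4 and 28.5 RPKM with DMSO, 25.4, 26.9 and 25.3 with LEN, 26.4, 27.6 and 27.3 with AI-10-104, and 23.1, 24.95 and 24.3 with both. The samples with both agents were below all others, and those with LEN were below DMSO. WDR12 fell by 0.21 ± 0.04 against DMSO (adjusted p = 0.0078) and by 0.17 against AI-10-104 (adjusted p = 0.018). Its partners gave other values, PES1 with -0.05 against DMSO (adjusted p = 0.57) and BOP1 with -0.02 (adjusted p = 0.90). NOP2, an rRNA methyltransferase, and NOP16, WDR74, RRS1, NIP7 and GRWD1 did not pass the test on uncorrected values of all samples.

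With all samples and uncorrected values, the snoRNP proteins passed no test between groups. NOP58, a scaffold of box C/D snoRNPs, was at 173 ± 12.2 RPKM with DMSO, 168 ± 5.70 with LEN, 192 ± 2.58 with AI-10-104 and 185 ± 1.09 with both, and rose by 0.15 in the average effect of AI-10-104 (adjusted p = 0.013). Its partner NOP56 ranged from 205 to 229 RPKM, and RRP9 from 28.0 to 32.4. Of the box H/ACA proteins, DKC1, the pseudouridine synthase dyskerin, ranged from 83.6 to 93.0 RPKM, and GAR1 from 86.7 to 102. Box C/D genes had a median log2 fold change of -0.02 and box H/ACA genes of -0.05 with LEN+AI-10-104 against DMSO (0.02 over all genes).

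For 4 genes, chosen after their values were seen, the second AI-10-104 sample differed from the other 2. Their GC content ran from 54.3% in FBL to 65.6% in BOP1, and not all genes of like GC content did so. With AI-10-104, RRP9 (60.7%) was at 30.7, 30.5 and 29.2 RPKM and RRP12 (58.6%) at 30.1, 30.6 and 29.8. RRS1 (56.3%), in contrast, was at 61.4, 74.3 and 66.0. PPAN was at 6.12, 8.69 and 6.10 RPKM with AI-10-104, against 8.67, 8.27 and 7.61 with DMSO and 8.76, 8.49 and 8.19 with both agents. NHP2, a core box H/ACA protein, was at 91.5, 117 and 89.7 RPKM with AI-10-104 against 116, 109 and 106 with DMSO. FBL was at 378, 430.3 and 387 against 466, 432 and 436, and BOP1 at 47.1, 57.0 and 47.4 against 58.5, 54.1 and 54.3. In each of these 4 genes, the first and the last AI-10-104 sample lay below all DMSO samples, and the second lay near, among or above them. Without the second sample, 4 genes fell with AI-10-104 against DMSO (BOP1, FBL, NHP2 and PPAN), where 0 fell with it, and WDR75 rose, but the share of all genes went up as well, from 2.46% to 7.65% lower and from 2.09% to 6.29% higher. In LEN+AI-10-104 against AI-10-104 without it, 6 genes rose (BOP1, FBL, NHP2, NIP7, PPAN and RRS1) and 12 fell, against 14.8% and 9.83% of all genes. PPAN also shares 47.6% of its exon bases with the readthrough gene PPAN-P2RY11, and NHP2 28.0% with RMND5B on the other strand, so that their reads may be split or mixed.

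The interaction, the difference between the effect of LEN with AI-10-104 and without it, called 0 genes in either direction, as it did for 0 of all 11241 genes. For the 36 genes the smallest adjusted p was 0.28, for DDX21 (log2 difference -0.13) and HEATR1 (-0.19). At an unadjusted p under 0.05, BOP1 was higher (9.04% of all genes) and DDX21, HEATR1, POLR1B and WDR75 were lower (5.38%), and voom called 0 of the 36. Without the second AI-10-104 sample, BOP1, FBL, NHP2 and PPAN were higher at an adjusted p of at most 0.05 and HEATR1 was lower, so the count of calls rested on that sample. In that fit 3.69% of all genes were called higher and 1.11% lower, where 0 were called with all samples. An effect of LEN that differs between cells with and without AI-10-104 was not shown with all samples.

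GC content of the 36 genes ran from 37.7% in WDR75 to 65.6% in BOP1. The log2 fold change, taken with its sign, rose or fell with GC content in some comparisons, and only weakly for LEN against DMSO. Spearman's rho over the 36 genes between GC content and log2 fold change was 0.12 for LEN against DMSO (0.05 over all genes with a GC value), -0.72 for AI-10-104 against DMSO (-0.35), 0.41 for LEN+AI-10-104 against DMSO (0.28), 0.84 for LEN+AI-10-104 against AI-10-104 (0.52) and 0.80 for the average effect of LEN (0.42). For the interaction rho was 0.77 (0.51). The genes share the same libraries, and a fit on values corrected for GC content was added after seeing the data. There the median for LEN+AI-10-104 against DMSO was -0.10, and 10 genes fell (5.53% of all genes), DDX21, FBL, NAT10, NPM1, POLR1A, POLR1B, RRP12, TSR1, UTP20 and WDR12, while NCL had an adjusted p of 0.055. Against AI-10-104, 12 fell (5.35% of all genes), and GNL3, NCL, UTP20, WDR12 and WDR43 no longer passed. DDX21, HEATR1, NOLC1, NPM1, POLR1B and WDR75 passed there with and without the correction. In the average effect of LEN 14 fell (5.95% of all genes), and GNL3, LYAR, PNO1, WDR12 and WDR43 no longer passed.

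**Figure D5:**
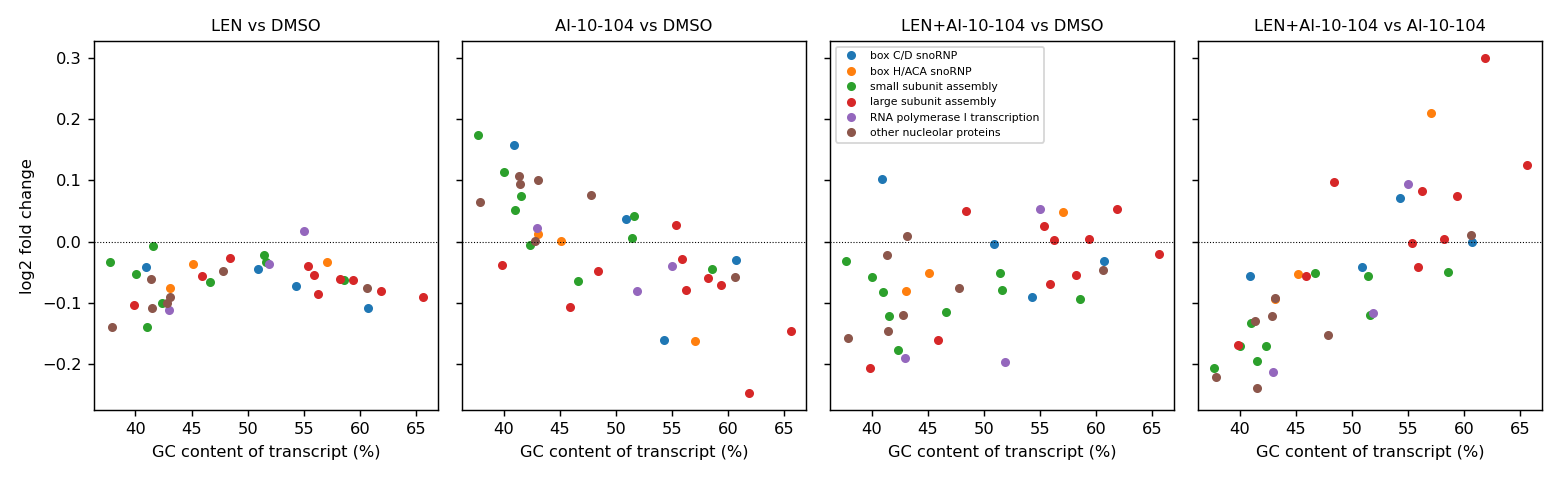
Log2 fold change (vertical axis) against GC content in percent (horizontal axis) of the 36 genes, coloured by role, in 4 comparisons. Points slope upward for LEN+AI-10-104 against AI-10-104 (rho 0.84) and downward for AI-10-104 against DMSO (rho -0.72).

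The calls also depended on single libraries. The count that fell with LEN+AI-10-104 against DMSO was 4, 2 and 3 without the first, the second and the third DMSO sample (2.56%, 1.38% and 1.57% of all genes). It was 3 without the first and 4 without the third LEN+AI-10-104 sample (1.62% and 1.93%), and 2 when only the groups compared were fitted (1.98%). With all samples it was 7 (3% of all genes). WDR12 and POLR1B fell under all 26 other settings. The count against AI-10-104 was 4 without the first or the third AI-10-104 sample (1.09% and 1.53% of all genes). It was 3 without the first and 7 without the third LEN+AI-10-104 sample (1.77% and 4.04%), and 3 when only the groups compared were fitted (2.17%). With all samples it was 11 (5.84% of all genes). DDX21, NPM1 and POLR1B fell under all 26 other settings there, and DDX21, NPM1, POLR1B and UTP20 fell under all 25 in the average effect of LEN. The count in that effect was 6 without the second DMSO sample (2.48% of all genes), the first or the third AI-10-104 sample (2.45% and 2.57%) or the first LEN+AI-10-104 sample (2.55%). It was 7 without the third DMSO sample (2.69%) or the first or the third LEN sample (3.14% and 3.59%). With all samples 4.74% of all genes fell in it. The fall of POLR1A in the average effect of AI-10-104 was kept in 3 of the 12 fits that left out 1 sample, those without the third DMSO, the first LEN+AI-10-104 or the third LEN+AI-10-104 sample.

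Outside the 37 genes, a wider list of 109 nucleolar genes, of which 102 were tested, was examined in the same tests. Its median was -0.04 with LEN+AI-10-104 against DMSO (0.02 over all genes), with 75 genes below 0 (42.8% of all genes). There WDR3, a small subunit factor, fell by 0.17 (adjusted p = 0.026) and DDX55 and RCL1 rose by 0.20 and 0.14 (adjusted p = 0.010 and 0.024). Of all genes, 3% fell and 5.64% rose in that comparison. Of the next largest differences, MAK16 had -0.16 (adjusted p = 0.053), MDN1 -0.16 (adjusted p = 0.099) and DDX51 0.15 (adjusted p = 0.25). Against AI-10-104, 21 of these genes fell (5.84% of all genes) and TSR2 and TSR3 rose (2 genes, against 9.13%), and in the average effect of LEN 22 fell (4.74% of all genes) and 0 rose (7.15%). With LEN alone 87 of 102 lay below 0 (51.0% of all genes) and 0 were called (0.979% higher and 0.151% lower of all genes). Of 78 cytosolic ribosomal protein genes, 75 were tested and 66 lay below 0 with LEN (51.0% of all genes), with 0 called. With LEN+AI-10-104 against DMSO, 61 of them lay below 0 (42.8% of all genes) and 1, RPS24, fell (3% of all genes). With AI-10-104 alone 11 of them fell (2.46% of all genes), whereas against AI-10-104 the combination raised 15 (9.13% of all genes) and lowered RPL9, RPS3A and RPS4X (3 genes, against 5.84%). Reads of many ribosomal protein genes can be shared with pseudogenes.

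MYC, the transcription factor the 37 genes are known to respond to, was at 219, 209 and 195 RPKM with DMSO, 175, 188 and 174 with LEN, 226, 242 and 223 with AI-10-104, and 215, 217 and 194 with both. LEN samples lay below all DMSO samples, AI-10-104 samples above them, and the samples with both agents overlapped DMSO. The log2 fold change of MYC was -0.21 with LEN (adjusted p = 0.12), 0.15 with AI-10-104 (adjusted p = 0.15) and 0.00 with both (adjusted p = 0.97), and it rose by 0.22 with both against LEN alone (adjusted p = 0.049). In the average effects, MYC fell by 0.18 with LEN (adjusted p = 0.015) and rose by 0.18 with AI-10-104 (adjusted p = 0.014). Of the other 8 genes of its network, MXD3, which competes with MYC for the partner MAX, went from 3.41 RPKM with DMSO to 2.20 with AI-10-104 and fell by 0.62 (adjusted p = 0.0013). Against AI-10-104, LEN+AI-10-104 raised MXD3 by 0.72 (adjusted p = 0.00065) and MXD4, of the same family, by 0.42 (adjusted p = 0.019), and lowered MXI1 (log2 fold change -0.20, adjusted p = 0.017) and MGA (-0.17, adjusted p = 0.036).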

How the data were processed

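Per the study's methods, poly(A) libraries were made with a strand-marking kit and aligned to GRCh38 with STAR; the submitters' processing notes also name FastQC, Cuffnorm and DESeq2, with no versions. The strand setting of counting is not given in the sources used here. The authors deposited 1 table of RPKM per gene and sample, with gene lengths. RPKM times length gave whole reads (within 0.05) for 100% of values, which were used for depth and for voom. These reads had no molecular identifiers.

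The main test was limma 3.58.1 (R 4.3.3), with a variance trend, on log2(RPKM + 0.1) in the 11241 of 38478 genes whose average over all samples reached 0.5 RPKM, 1 mean per group, all 12 samples, two-sided, with Benjamini-Hochberg adjustment over all genes tested. Fold changes are on the log2(RPKM + 0.1) scale. Samples were grouped by their titles. A gene was called at an adjusted p up to 0.05 with a log2 fold change of at least 0.32 (none for the interaction). As the first rule called none of the genes, the second, without a fold threshold, is given too. Genes given in full were those with an adjusted p of at most 0.05 in any comparison planned. The average effects of LEN and AI-10-104 and the GC correction were added after seeing the data. The members, lists and tests were chosen with earlier results of these data known. No set test was run. Scripts were tested on simulated data. Python 3.11.15, pandas 2.3.3, scipy 1.17.1 and matplotlib 3.10.9 were used. Coordinates are those of GENCODE 44 on GRCh38, and promoter sequences are from RefSeq. Older symbols were matched for NOP53, POLR1F and POLR1H, while POLR1G and TRAC were not matched. P-values measure only the spread between these samples.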

Additional observations from a re-analysis of the deposited data

How the results depend on the processing

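The 36 genes had at least 240 reads in every library. There were 3 samples a group, 1 line, 1 dose and 1 time. The median differences from DMSO were -4.14% with LEN and -3.76% with LEN+AI-10-104. The median coefficient of variation within groups, 3.24%, is a spread of single genes and not of the set. The mean log2 value over the 36 genes, relative to DMSO, averaged -0.065 with LEN and -0.060 with LEN+AI-10-104. Its pooled SD between samples of a group was 0.033. Some single genes differed by more than their spread, such as POLR1B with 23.0 ± 0.55 RPKM in DMSO and 20.1 ± 0.30 with LEN+AI-10-104. The call of most genes rested on a few libraries. Single named genes gave 96 results in the main fit, most of them not called. Under the alternatives, 2296 kept their side of the threshold, mainly results that stayed uncalled, 136 lost a call and 28 gained one. None turned direction while called, and the cause was not tested. Against DMSO, the call of NCL was kept in 9 of 14 alternatives and 5 of 12 fits without 1 sample, that of WDR12 in 14 of 14 and 12 of 12. With no fold threshold, the counts past both limits became 7 lower for LEN+AI-10-104 against DMSO, 11 lower against AI-10-104, 11 lower for the average effect of LEN, and 2 higher and 1 lower for that of AI-10-104. At an adjusted p alone, 7 lower against DMSO (3% of all genes) became 4 with any value above 0 (0.958%) and 2 with only the groups compared (1.98%). It became 11 with a length correction and block (6.16%) and 14 with a GC correction and block (6.73%). Against AI-10-104, 11 lower (5.84% of all genes) became 7 with any value above 0 (1.63%) and 3 with only the groups compared (2.17%). The average effect of LEN gave 7 lower with any value above 0 (1.46% of all genes) and 17 with a GC correction and block (7.05%). For AI-10-104 against DMSO, 0 higher became 1 with quantile normalization (2.05% of all genes), 2 with voom (4.07%) and 1 with a length correction and block (3.08%). There 0 lower became 1 with voom (4.75%). Against LEN, 0 higher became 1 with voom (3.16% of all genes), 1 with a GC correction (2.58%) and 2 with it and the block (3.77%). There 0 lower became 1 with median-ratio scaling (3.34%), quantile normalization (2.87%), voom (2.83%) or a GC correction (3.89%). It became 2 with the length correction and block (4.2%) or the GC correction and block (5.41%). The average effect of AI-10-104 gave 0 lower with any value above 0 (1.5% of all genes) or no variance trend (3.82%). It gave 2 with the block (5.02%), a length correction (5.76%) or a GC correction (7.2%). With the block added, it gave 5 with the length correction (7.2%) and 4 with the GC correction (8.36%). Medians moved to -0.10 against DMSO with a GC correction, with or without the block, and to -0.093 against AI-10-104 and -0.048 for the interaction with a length correction, with or without it.

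Leaving out 1 sample at a time gave, at both limits, 0 to 1 lower for AI-10-104, 0 to 2 higher for LEN+AI-10-104 against AI-10-104, and 0 to 4 higher and 0 to 1 lower for the interaction. At an adjusted p alone it gave 0 to 1 higher and 0 to 4 lower for AI-10-104, 2 to 8 lower for LEN+AI-10-104 against DMSO, 0 to 1 higher against LEN, 0 to 6 higher and 3 to 12 lower against AI-10-104, 0 to 2 higher and 6 to 13 lower for the average effect of LEN, and 2 to 3 higher and 0 to 2 lower for that of AI-10-104. The share of all genes called lower moved as well, from 1.38% to 3.64% for LEN+AI-10-104 against DMSO. It moved from 1.09% to 9.83% against AI-10-104, and from 2.45% to 7.81% for the average effect of LEN.

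Over 18 pairs of samples with the same number, the correlation of deviations from the group means averaged 0.052 (-0.027 to 0.155). Over 36 other pairs it averaged -0.026 (-0.133 to 0.059). Deviations within a group sum to 0, which ties these averages to each other. Whether samples with the same number were paired cannot be told from them. With the replicate block, 9 genes were lower with LEN+AI-10-104 against DMSO (3.72% of all genes) and 12 against AI-10-104 (7.86%). There 13 were lower in the average effect of LEN (6%) and 2 in that of AI-10-104 (5.02%), and 0 were called in the interaction.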
